A study of Rattus norvegicus with 12 samples.

Results

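The neurotrophin family was taken here as 5 chosen genes with 8 probe sets, among the 15923 probe sets of the array and the 10411 genes it named. The 5 were *Bdnf* (probe sets 1368677_at and 1368678_at), *Ntf3* (1387267_at), *Ntrk2* (1368972_at, 1370652_at and 1370687_a_at), *Ntrk3* (1368939_a_at) and *Ngfr* (1368148_at). All probe sets annotated to these 5 symbols were taken, and the 3 probe sets of *Ntrk2* were kept apart. RNA came from untreated Fisher 344/BN F1 rats aged 6 months. Stained neurons were cut by laser from frozen sections of the hippocampal CA1 pyramidal layer, the hippocampal CA3 pyramidal layer, the cerebellar granule (CbG) cell layer and frontal cortex layers IV to VI (CTX), giving 12 arrays with 3 biological replicates per region. The sources used here do not tie a replicate number to a rat, so p-values measure the spread between these samples only. The study set neurons vulnerable to oxidative stress (VUL, CA1 and CbG) against resistant ones (RES, CA3 and CTX), all at rest. Captured layers can hold other cells beside the target neurons, and RNA was amplified in 2 cycles before labeling.

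Neurotrophins are secreted growth factors that keep neurons alive and tune their synapses. Brain-derived neurotrophic factor (*Bdnf*) binds the receptor tyrosine kinase TrkB (*Ntrk2*), and neurotrophin-3 (*Ntf3*) binds mainly TrkC (*Ntrk3*). The p75 receptor (*Ngfr*) binds all mature neurotrophins, and with sortilin it binds their uncleaved precursors. Active Trk receptors signal through the Ras and MAPK, the PI3K and Akt and the phospholipase C branches. Both Trk genes also give truncated receptors without a kinase, and in the brain astrocytes carry much of the truncated TrkB. In the hippocampus *Bdnf* mRNA is known from pyramidal and dentate granule cells, and neurotrophin-3 is known from cerebellar granule cell development.

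*Bdnf* lies on rat chromosome 3 (GRCr8 116619633 to 116670212), *Ntf3* on chromosome 4 (160601161 to 160670623), *Ntrk2* on chromosome 17 (5560558 to 5875899), *Ntrk3* on chromosome 1 (141526192 to 141913575) and *Ngfr* on chromosome 10 (81012077 to 81030305). RefSeq lists 11 transcripts of *Bdnf*, 5 of *Ntf3*, 14 of *Ntrk2*, 8 of *Ntrk3* and 1 of *Ngfr*. Probe sequences were not used here, so the signals were not assigned to promoters or to full-length and truncated receptor forms.

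Both ligand genes among the 5 had their highest mean signal in CA3, and the bases ahead of their transcription starts are shown for that reason. Windows before a start were given for 2 of the 5 genes in RefSeq (GRCr8), 6 for *Bdnf* and 3 for *Ntf3*. *Bdnf* is known for several promoters, each with a 5′ exon of its own, and for control by CREB, which binds the cAMP response element TGACGTCA or its core CGTCA. The 250 bases before the start are printed 5′ to 3′ on the strand of the gene, for *Bdnf* at its first start (chr3:116619383-116619632, + strand) and at a later one (chr3:116637608-116637857, + strand), and for *Ntf3* at its first start (chr4:160670624-160670873, - strand). Capitals mark CGTCA or its reverse complement TGACG.
Bdnf first start: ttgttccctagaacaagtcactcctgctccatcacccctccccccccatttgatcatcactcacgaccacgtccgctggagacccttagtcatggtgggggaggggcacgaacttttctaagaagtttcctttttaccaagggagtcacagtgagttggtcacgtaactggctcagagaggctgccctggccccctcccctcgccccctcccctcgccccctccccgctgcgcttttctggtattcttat
Bdnf later start: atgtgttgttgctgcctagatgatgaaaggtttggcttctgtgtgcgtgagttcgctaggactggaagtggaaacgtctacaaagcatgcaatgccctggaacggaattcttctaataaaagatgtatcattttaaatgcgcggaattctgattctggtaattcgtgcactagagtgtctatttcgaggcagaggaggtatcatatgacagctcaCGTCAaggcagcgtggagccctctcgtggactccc
Ntf3 first start: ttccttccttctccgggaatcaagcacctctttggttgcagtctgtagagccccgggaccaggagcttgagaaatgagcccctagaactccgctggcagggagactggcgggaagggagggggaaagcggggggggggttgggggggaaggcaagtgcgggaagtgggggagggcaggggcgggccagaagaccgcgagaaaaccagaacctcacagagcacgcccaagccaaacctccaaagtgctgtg
The core element was found 1 time in the later *Bdnf* window and 0 times in the other 5 windows of *Bdnf* and in the 3 windows of *Ntf3*. Over all 33465 windows of this length, 18.2% held it, and 1.59% held the whole TGACGTCA, which was in none of these 9. A match of letters is a description and not a binding site.

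Signals here are MAS5 intensities, linear values that the authors scaled to a common target per array, and levels of different probe sets cannot be set against each other. Array medians lay between 144.5 and 198.75. The array labelled CA3 replicate 3 had the cerebellar granule markers *Gabra6* (2567.6), *Cbln1* (7231.9) and *Fat2* (5515.8) at the level of CbG replicates 1 and 2. The array labelled CbG replicate 3 had them at 15.4, 68.1 and 67.5 and the CA3 marker *Grik4* at 621, against 679.9 and 969 in CA3 replicates 1 and 2. Each correlated best with an array of the other region (r = 0.932 with CbG replicate 1 and r = 0.933 with CA3 replicate 1, over all probe sets). Comparisons therefore rest on the 10 arrays other than these doubtful 2, and those over all 12 arrays are given with the 2 labels exchanged and as labelled. Among the 10 arrays *Wfs1*, a CA1 marker, was between 15688.4 and 20537.9 in CA1 and at most 1044.7 in the other 7. The array labelled CbG replicate 3, which counts as CA3 when the labels are exchanged, had *Wfs1* at 3769 and the CA1 marker *Pou3f1* at 413.6, against 1044.7 and 481.4 for *Wfs1* and 106.9 and 0.8 for *Pou3f1* in CA3 replicates 1 and 2. *Dkk3*, also listed for CA1, went the other way. Its signal of 9317.7 on this doubtful array fell between 8755 (CA3 replicate 1) and 12278.4 (CA3 replicate 2). CA1 arrays had less *Dkk3*, from 4070.1 to 5348.9. Of the 3 deep cortical markers on the array, *Tbr1* and *Rorb* were below the array median in CTX and *Crym* was as high in CA1 and CA3, so none of them set CTX apart.

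A probe set was tested when its signal exceeded the array median in at least 66.67% of arrays, and 2 of the 8 probe sets passed. *Ntrk2* 1368972_at and *Ntrk3* 1368939_a_at were above the median in 12 of 12 arrays. *Bdnf* 1368677_at was above it in 4 arrays, *Bdnf* 1368678_at in 1 and *Ntf3* in 5. *Ntrk2* 1370652_at, *Ntrk2* 1370687_a_at and *Ngfr* were above it in 0 of 12. The 6 probe sets below the filter were taken from a fit of all 15866 probe sets that are not controls, where a smaller share of probe sets was called. Differences are given on the log2 scale after centring each array on its median. Called differences had at least 1.5-fold size with an adjusted p under 0.05.

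**Figure D1:**
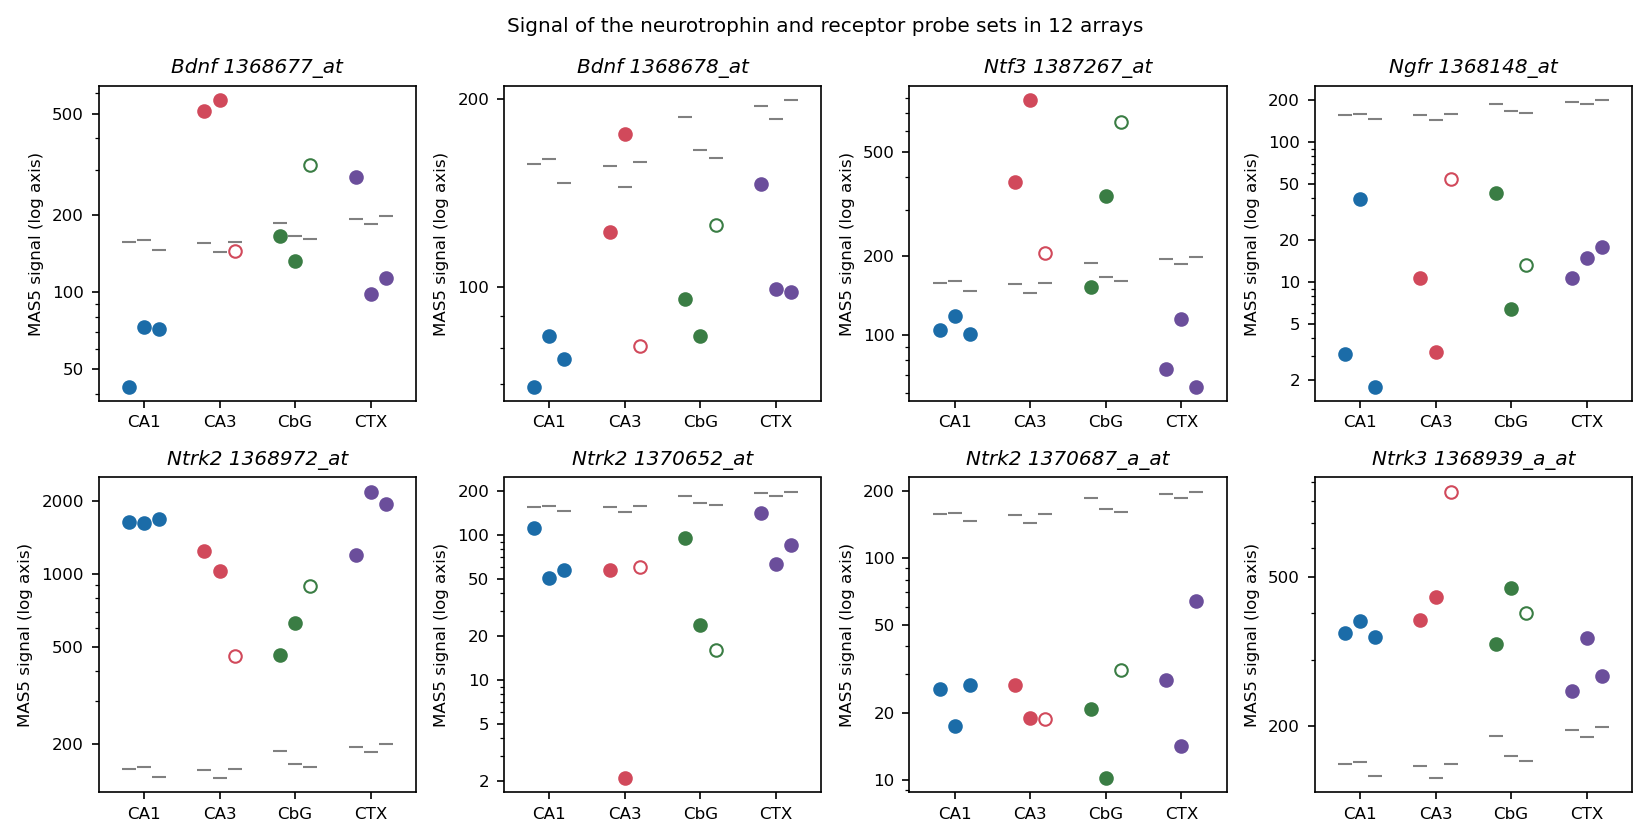
MAS5 signal (log axes) of the 8 probe sets by region, 1 circle per array with replicates 1 to 3 from left to right, open circles for replicate 3 of CA3 and of CbG as labelled, and grey dashes for the array medians. *Bdnf* 1368677_at and *Ntf3* stand above the median in the filled CA3 circles, and *Ntrk2* 1368972_at is lowest in CbG.

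Among the ligands, *Bdnf* 1368677_at was high in CA3 and low in CA1. Its signal was 42.8, 73.0 and 72.1 in CA1 replicates 1 to 3, 511.8 and 563.9 in CA3 replicates 1 and 2, 166.2 and 132.9 in CbG replicates 1 and 2, and 281.6, 98.6 and 114.3 in CTX replicates 1 to 3. The array labelled CA3 replicate 3 had 145.4, and that labelled CbG replicate 3 had 316.2. In captured layers, fewer cells of a type and less RNA per cell cannot be told apart. Both CA3 arrays were above every other array, and every CA1 array was below every array of another region. Between arrays of 1 replicate number, CA1 minus CA3 was -3.59 on the log2 scale for number 1 and -3.10 for number 2. Of the dentate granule markers, *Prox1* was 98.2 to 139.8 in CA1 against 109.3 and 88 in CA3 replicates 1 and 2. *Dsp* was 43.4 to 88.4 against 63 and 75.8, and these values of *Prox1* and *Dsp* were all below the array medians. The other marker listed, *Calb1*, was higher in CA1, at 1102.9, 544.1 and 943.7 against 297.2 and 90.4. The part of dentate cells in the *Bdnf* values was not tested.

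The difference CA1 minus CA3 of *Bdnf* 1368677_at was -3.16 (SE 0.55), with an adjusted p of 0.0834 in the fit without a filter. Its size depends on low signals, since CA1 lay between the 25.33rd and the 37.7th percentile of the arrays, and it was -2.39 with 50 added to each signal (adjusted p = 0.00363). CA3 minus CTX was 2.21 (SE 0.55, adjusted p = 0.0864), CA3 minus CbG was 2.08 (SE 0.57, adjusted p = 0.0663) and VUL minus RES was -1.52 (SE 0.37, adjusted p = 0.0914), none of them called. With the 2 labels exchanged the same comparisons were called, at -2.89 (adjusted p = 0.0178) for CA1 minus CA3, 1.94 (0.0314) for CA3 minus CTX, 1.75 (0.0247) for CA3 minus CbG and -1.35 (0.0363) for VUL minus RES. As labelled, CA1 minus CA3 was -2.53 (adjusted p = 0.26). Without the replicate block the 10 arrays also gave calls, with CA1 minus CA3 at -3.18 (adjusted p = 0.0156) and VUL minus RES at -1.52 (adjusted p = 0.0361). CbG minus CTX of *Bdnf* 1368677_at was 0.13 (95% CI -1.22 to 1.47). The other differences of CA1 were not called either, with CA1 minus CbG at -1.08 (adjusted p = 0.259) and CA1 minus CTX at -0.95 (adjusted p = 0.254).

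The second *Bdnf* probe set, 1368678_at, had a narrower range. Its signal was 69.3, 83.4 and 76.6 in CA1, 122.3 and 175.9 in CA3 replicates 1 and 2, 95.7 and 83.6 in CbG replicates 1 and 2, and 146.1, 99.4 and 98.2 in CTX. Of the 2 doubtful arrays, that labelled CA3 replicate 3 had 80.6 and that labelled CbG replicate 3 had 125.5. The CA3 arrays were again above all CA1 arrays, but CTX replicate 1 lay between the 2 CA3 arrays. CA1 minus CA3 was -0.95 (SE 0.32, adjusted p = 0.265). Only CA3 minus CbG of *Bdnf* 1368678_at was called once the labels were exchanged, at 0.83 (adjusted p = 0.0414).

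*Ntf3* was likewise highest in CA3, second in CbG and low in CA1 and CTX. Its signal was 103.9, 118.3 and 100.7 in CA1, 381.9 and 786.0 in CA3 replicates 1 and 2, 152.5 and 339.5 in CbG replicates 1 and 2, and 73.7, 114.4 and 63.3 in CTX. The array labelled CA3 replicate 3 had 205.5, and that labelled CbG replicate 3 had 649.0. Neither CA3 array overlapped another of the 10 arrays, and both CbG arrays exceeded all CA1 and CTX arrays.

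CA3 minus CTX of *Ntf3* was 3.01 (SE 0.34, adjusted p = 0.0242), and CA3 minus CbG was 1.497 (SE 0.36, adjusted p = 0.0453). Both were called in the fit without a filter. CTX lay between the 25.52nd and the 40.58th percentile of the arrays, and with 50 added to each signal CA3 minus CTX was 2.40 (adjusted p = 0.000488). The second call was lost without the replicate block (adjusted p = 0.0979) and in 12 of 13 fits without an array or a replicate number (1.17 to 1.83, adjusted p up to 0.303), all but that without CA1 replicate 2. The first was lost in 10 of these 13 fits (2.77 to 3.35 over all 13, adjusted p up to 0.321), all but those without CA1 replicate 2, CbG replicate 1 or CbG replicate 2. CA1 minus CA3 was -2.29 (SE 0.34, adjusted p = 0.0657) and CbG minus CTX was 1.52 (SE 0.34, adjusted p = 0.0681). With the labels exchanged all 4 were called, at 3.17 (adjusted p = 0.0014) for CA3 minus CTX, 1.54 (0.00531) for CA3 minus CbG, -2.44 (0.00705) for CA1 minus CA3 and 1.62 (0.00781) for CbG minus CTX. As labelled, CA3 minus CbG was 0.45 (adjusted p = 0.895), since the array with 649.0 then counts as CbG. VUL minus RES of *Ntf3* was -0.39 (95% CI -0.95 to 0.18), with the higher region on the resistant side in the hippocampus and on the vulnerable side between CbG and CTX. In the order CA3, CbG, CA1 and CTX, the neighbours CbG and CA1 (CA1 minus CbG -0.79, adjusted p = 0.194) and CA1 and CTX (CA1 minus CTX 0.73, adjusted p = 0.18) did not pass the test.

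The CbG arrays also carried RNA of Purkinje cells. *Pcp2* was 1883.2 and 3601.6 in CbG replicates 1 and 2, between 50.6 and 85.3 in the other 8 of the 10 arrays, and 294.9 in the array labelled CA3 replicate 3. The summed signal of 4 Purkinje markers was 14905.8 and 35208.7 in these CbG arrays, against 3679.1 to 8256.6 in the other 8, and it was higher in the CbG array with the higher *Ntf3* signal. The array labelled CA3 replicate 3, with granule markers and a Purkinje sum of 2601.2, had an *Ntf3* signal of 205.5. The part of Purkinje cells in the CbG values was not tested.

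Among the receptors, *Ntrk2* 1368972_at was lowest in CbG. Its signal was 1638.0, 1616.5 and 1692.4 in CA1, 1251.0 and 1026.7 in CA3 replicates 1 and 2, 463.5 and 630.7 in CbG replicates 1 and 2, and 1197.0, 2182.6 and 1942.2 in CTX. Of the 2 doubtful arrays, that labelled CA3 replicate 3 had 459.8 and that labelled CbG replicate 3 had 890.2. Both CbG arrays were below the other 8, while CTX overlapped CA1 and CA3. CA1 arrays differed among themselves by less than those of any other region.

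Between arrays of 1 replicate number, CbG minus CTX of *Ntrk2* 1368972_at was -1.31 for number 1 and -1.62 for number 2. The fitted difference was -1.47 (SE 0.27, 2.78-fold lower in CbG, adjusted p = 0.00201). The probe set was also higher in CA1 than in CbG, by 1.74 (SE 0.27, adjusted p = 0.000322), and higher in CA3 than in CbG, by 1.30 (SE 0.28, adjusted p = 0.003). CA1 minus CA3 was 0.44 (95% CI -0.15 to 1.02), and VUL minus RES was -0.52 (SE 0.18, adjusted p = 0.0568). With the labels exchanged CbG minus CTX was -1.56 (adjusted p = 0.000205), CA1 minus CbG 1.82 (adjusted p = 2.88e-05) and CA3 minus CbG 1.17 (adjusted p = 0.00101). As labelled they were -1.25 (adjusted p = 0.23), 1.51 (adjusted p = 0.135) and 0.56 (adjusted p = 0.8). In the fit of all probe sets, CbG minus CTX (adjusted p = 0.0636) and CA3 minus CbG (adjusted p = 0.0554) were no longer called, while CA1 minus CbG was (adjusted p = 0.0218).

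In order of its centred region means, *Ntrk2* 1368972_at ran CA1, CTX, CA3 and CbG, but without centring CTX stood before CA1 (CA1 minus CTX -0.06). The neighbours CA1 and CTX (0.26, 95% CI -0.24 to 0.76) and CA3 and CTX (-0.18, 95% CI -0.76 to 0.41) did not differ beyond their spread. CA3 minus CbG lost its call without CA3 replicate 1 (0.96, adjusted p = 0.0569) and without replicate number 1 (0.90, adjusted p = 0.0862).

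Glial RNA differed between the regions as well. The summed signal of 8 astrocyte markers was 13216.1 to 17963.2 in CA1, 17885.2 and 11027.3 in CA3, 27991.3 and 46170.8 in CbG and 24706.4 to 39737.2 in CTX. The summed signal of 6 oligodendrocyte markers (of 7 listed) was 4156 to 5474.6 in CA1, 11220.9 and 8489.1 in CA3, 12962.8 and 10444.2 in CbG and 23675.7 to 38695.4 in CTX. Of the astrocyte sum, the marker *Aldoc* gave 5085.7 and 18767.8 in CbG replicates 1 and 2, and 5145.8, 5864.3 and 6657.1 in CTX. The part of glia in the *Ntrk2* values was not tested.

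The other *Ntrk2* probe sets stayed below the array median. *Ntrk2* 1370652_at lay between 50.5 and 111.6 in CA1, at 57.3 and 2.1 in CA3 replicates 1 and 2, at 96.1 and 23.9 in CbG replicates 1 and 2, and between 62.7 and 141.5 in CTX. Its CA3 minus CTX difference of -2.77 (adjusted p = 0.118) rested on the array at 2.1: without CA3 replicate 2 it was -1.13 (adjusted p = 0.316). It was -2.54 with the labels exchanged (adjusted p = 0.0406). *Ntrk2* 1370687_a_at lay between 10.2 and 63.9 over the 12 arrays, with all regions overlapping. Only 1368972_at therefore gave *Ntrk2* values above the median of the array.

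*Ntrk3* 1368939_a_at was lowest in CTX and differed little among the other regions. Its signal was 354.8, 382.7 and 345.0 in CA1, 384.3 and 443.8 in CA3 replicates 1 and 2, 331.3 and 467.7 in CbG replicates 1 and 2, and 247.1, 342.6 and 270.9 in CTX. The array labelled CA3 replicate 3 had 848.3, the highest of all 12, and that labelled CbG replicate 3 had 400.3. All 3 CA1 arrays were above all 3 CTX arrays, as were both CA3 arrays, while 1 CbG array overlapped CTX.

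CA1 minus CTX of *Ntrk3* was 0.66 (SE 0.19, adjusted p = 0.017), and CA3 minus CTX was 0.88 (SE 0.22, adjusted p = 0.0116). CbG minus CTX was 0.58 (SE 0.22, adjusted p = 0.0738). CA1 minus CA3 was -0.21 (95% CI -0.70 to 0.27), CA1 minus CbG 0.09 (95% CI -0.40 to 0.57) and CA3 minus CbG 0.30 (95% CI -0.21 to 0.80), so CA3, CbG and CA1, in this order of means, did not differ beyond their spread. VUL minus RES was 0.18 (95% CI -0.14 to 0.51). With the labels exchanged, CbG minus CTX was called at 1.02 (adjusted p = 0.0111), CA3 minus CTX stayed called at 0.85 (adjusted p = 0.0264), and CA1 minus CTX was not (adjusted p = 0.0739).

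Both calls of *Ntrk3* against CTX depended on single settings. Array medians were 146.6 to 159.85 in CA1, 156 and 144.5 in CA3 and 185.85 to 198.75 in CTX, and without centring CA1 minus CTX of *Ntrk3* was 0.34 (adjusted p = 0.155) and CA3 minus CTX was 0.51 (adjusted p = 0.0856). CA1 minus CTX lost its call when any of CA1 replicates 1 and 3, CTX replicates 1 and 3 or replicate numbers 1 and 3 was left out (0.57 to 0.64, adjusted p up to 0.127). CA3 minus CTX lost its call without CA3 replicate 1 or 2, CTX replicate 1 or replicate number 1 (0.82 to 0.93, adjusted p up to 0.106).

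*Ngfr* was near the bottom of every array. Its signal was 3.1, 39.4 and 1.8 in CA1, 10.7, 3.2 and 54.7 in CA3, 43.4, 6.4 and 13.2 in CbG and 10.8, 14.8 and 17.8 in CTX as labelled. These values lay between the 0.99th and the 30.49th percentile of their arrays, and replicates of 1 region differed as much as regions did. None of its 8 differences was called over 10 arrays (adjusted p 0.634 to 0.995), with the labels exchanged or as labelled.

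**Figure D2:**
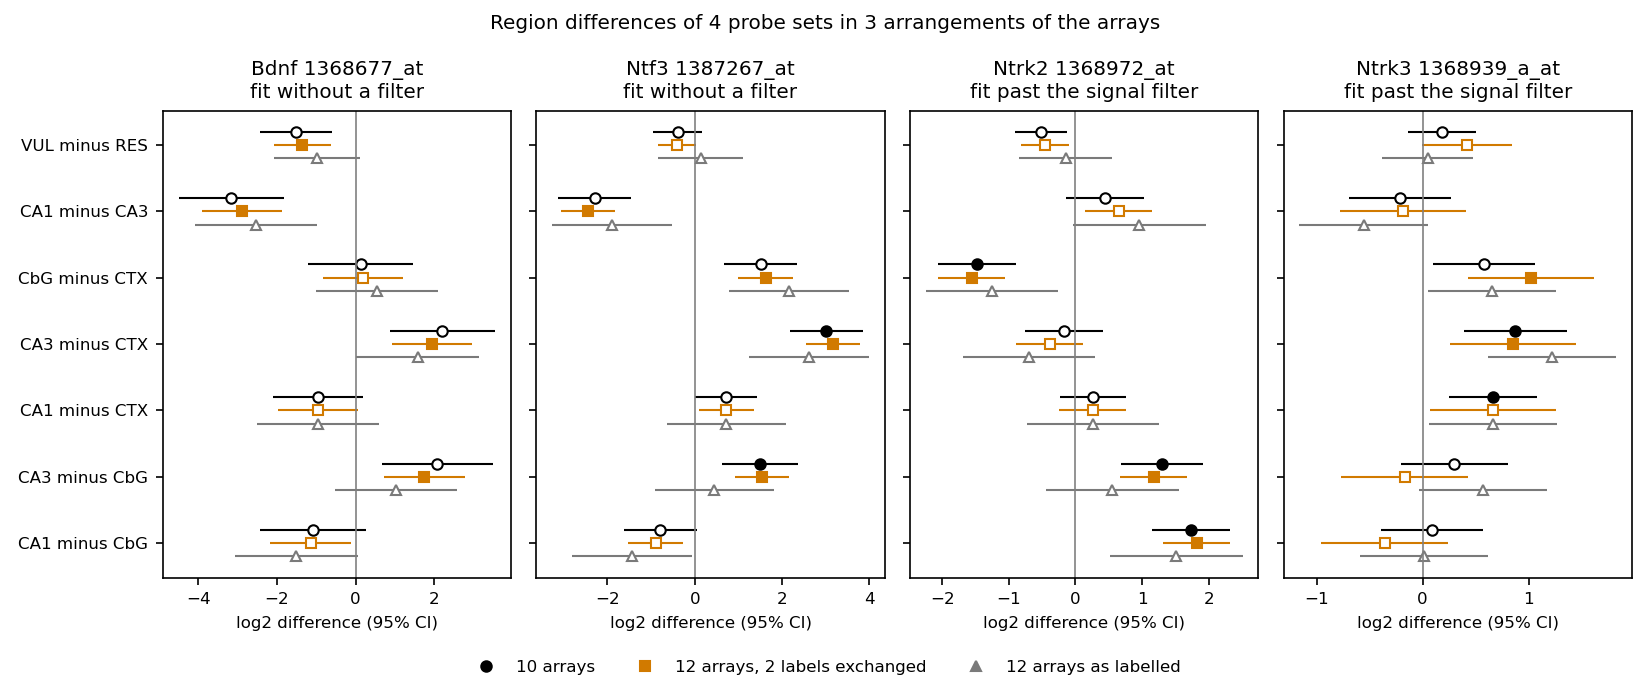
Log2 difference with 95% CI (horizontal axis) of 4 probe sets in 7 comparisons, for 10 arrays (circles), 12 arrays with 2 labels exchanged (squares) and 12 arrays as labelled (triangles), with called differences filled. All 3 circles that set *Ntrk2* in CbG against another region are filled, as are 2 of those of *Ntf3* in CA3 and none of *Bdnf*, and no triangle is filled.

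The differences CA1 minus CA3 and CbG minus CTX were unequal for 2 of the probe sets. The difference between CA1 minus CA3 and CbG minus CTX, a contrast chosen after the values were seen, was 1.91 (SE 0.40, adjusted p = 0.0064) for *Ntrk2* 1368972_at, of which CbG minus CTX was called and CA1 minus CA3 was not. For *Ntf3* it was -3.80 (SE 0.50, adjusted p = 0.0287), and neither CA1 minus CA3 nor CbG minus CTX was called by itself. The call of *Ntf3* was lost in all 13 fits without an array or a replicate number (-4.61 to -3.00, adjusted p 0.0514 to 0.332), and that of *Ntrk2* held in all 13 (1.57 to 2.25) but not in the fit of all probe sets (adjusted p = 0.116). For *Bdnf* 1368677_at it was -3.29 (SE 0.81, adjusted p = 0.116) and for *Ntrk3* -0.79 (SE 0.33, adjusted p = 0.128). The estimate over 12 arrays is the same whether or not the 2 labels are exchanged, since both arrays carry 1 sign in it: 2.21 for *Ntrk2* 1368972_at, -4.06 for *Ntf3*, -3.09 for *Bdnf* 1368677_at and -1.21 for *Ntrk3*. With the labels exchanged all 4 were called (adjusted p = 0.000285, 0.00116, 0.0255 and 0.0382), and as labelled none was (adjusted p = 0.119, 0.107, 0.266 and 0.152).

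These counts stand against the shares of all probe sets called. Of the 2 probe sets past the filter, 0 were called in VUL minus RES, where 17.8% of all tested probe sets were called (18.5% with the labels exchanged and 0% as labelled). In CA1 minus CA3 it was 0 of 2, against 10.5% (13.5% exchanged and 1.30% as labelled). In CbG minus CTX it was 1 of 2, against 26.3% (34.0% exchanged and 0.624% as labelled). In CA1 minus CTX it was 1 of 2, against 34.7% (34.1% exchanged and 6.61% as labelled), and in CA3 minus CTX 1 of 2, against 34.2% (36.3% exchanged and 1.94% as labelled). In CA1 minus CbG it was 1 of 2, against 39.3% (40.6% exchanged and 1.25% as labelled), and in CA3 minus CbG 1 of 2, against 43.1% (45.5% exchanged and 0% as labelled). In the contrast between the pairs it was 1 of 2, against 14.9% (24.0% exchanged and 2.07% as labelled).

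In the fits of all 15866 probe sets the shares were smaller. In VUL minus RES 3.09% were called (8.63% exchanged and 0.00630% as labelled), in CA1 minus CA3 0.271% (2.93% and 0.0252%), in CbG minus CTX 4.37% (13.1% and 0.214%) and in CA1 minus CTX 7.15% (11.5% and 0.637%). In CA3 minus CTX 2.96% were called (12% and 0.246%), in CA1 minus CbG 12.7% (20.5% and 0.0252%), in CA3 minus CbG 13.7% (23.1% and 0%) and in the contrast between the pairs 2.39% (7.25% and 0.334%). Of the 8 family probe sets over 10 arrays, 0 were called in CA1 minus CTX, in VUL minus RES or within either pair of the contrast, CA1 minus CA3 and CbG minus CTX. In CA1 minus CbG it was 1, *Ntrk2* 1368972_at, and *Ntf3* was the 1 called in CA3 minus CTX, in CA3 minus CbG and in the contrast between the pairs.

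Other genes of the pathway were taken from a list of 125, of which 94 had a probe set and 67 were tested. In VUL minus RES, 6 of the 67 were higher and 13 lower, in CA1 minus CA3 8 were higher and 0 lower, and in CbG minus CTX 4 were higher and 17 lower. The median difference of the list was -0.06, 0.08 and -0.16 in these comparisons. Over all 7463 tested probe sets, 646 were higher and 684 lower in VUL minus RES (median 0.04), 409 and 375 in CA1 minus CA3 (-0.03), and 1053 and 907 in CbG minus CTX (0.12). With the labels exchanged 66 genes of the list were tested, with 5 higher and 12 lower, 10 higher and 2 lower, and 6 higher and 17 lower. As labelled the counts were 0 and 0, 1 and 0, and 0 and 1, and with no filter on 10 arrays 2 and 6, 1 and 0, and 1 and 9 of 94. *Ntf4*, the other ligand with a probe set, stayed between 4.5 and 42.7 and was not tested.

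The sortilin family binds uncleaved neurotrophins and sorts them in the cell. *Sort1* was 569.1 and 683.9 in CbG replicates 1 and 2, against 1936.6, 1574.5 and 1890.3 in CTX, and CbG minus CTX was -1.29 (SE 0.26, adjusted p = 0.00381). In the hippocampus *Sort1* was between 2988.8 and 4819.6 in CA1, and 3559.3 and 3838.1 in CA3. *Sorcs3* (-2.63, adjusted p = 0.000926) and *Sorcs2* (-1.56, adjusted p = 0.00113) were lower in CbG than in CTX too. These genes stood on a list of other receptors, of which 3 of 5 tested genes were lower and 0 higher. That list also held *Sorl1* and *Kidins220*, and *Kidins220* is not of the sortilin family. Over all 7463 tested probe sets, 907 were lower and 1053 higher. With the labels exchanged 3 genes of this list were lower and 1 higher, as labelled 0 and 0, and with no filter 0 and 0 of 5. *Sorl1*, also tested, was 6515.2 and 8766.2 in CbG replicates 1 and 2 against 5868.2, 5320.8 and 4816.8 in CTX, and this difference was not called. The low CbG signal of *Ntrk2* 1368972_at stood beside low signals of *Sort1*, *Sorcs3* and *Sorcs2*.

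Among genes of proneurotrophin processing and release, *Pcsk2*, a convertase of the regulated secretory pathway, was 204 and 87.9 in CbG against 630.5, 462.6 and 474 in CTX (-1.80, SE 0.29, adjusted p = 0.00081). *Cadps2*, a vesicle release factor reported in mouse to promote BDNF secretion, went the other way, with 9031.8 and 9100.6 in CbG against 2784, 4360.5 and 2982.7 in CTX (1.56, SE 0.50, adjusted p = 0.0384). *Cadps2* was lowest where the *Bdnf* signal was highest, with 218.3 and 39.3 in CA3 against 3124, 2684 and 2939.8 in CA1, and CA1 minus CA3 was 4.96 (SE 0.50, adjusted p = 0.000134). *Plat*, tissue plasminogen activator, was lower in CA1 than in CTX (-1.46, adjusted p = 0.00136) and in CA3 than in CTX (-1.57, adjusted p = 0.00325).

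Of the regulators of *Bdnf* transcription, *Mef2c* was 2792.7, 2886.7 and 2811.4 in CA1 against 1123.3 and 858.9 in CA3 (1.52, SE 0.27, adjusted p = 0.00441), and 234.2 and 395.5 in CbG against 10869.4, 12942.5 and 9991.5 in CTX (-5.11, SE 0.27, adjusted p = 1.47e-07). *Creb1* was lower in CA1 than in CbG (-0.80, adjusted p = 0.0249) and in CA3 than in CbG (-1.02, adjusted p = 0.00816). Of 5 tested regulators, 3 were higher and 2 lower in CA3 minus CbG, *Usf2* among the higher (0.87, adjusted p = 0.0202). Over all 7463 tested probe sets, 2177 were higher and 1040 lower in this comparison (43.1% called). With the labels exchanged 1 regulator was higher and 2 lower, as labelled 0 and 0, and with no filter 1 and 0 of 10.

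Many genes known to be induced by Trk signaling, most of them also by other activity, differed between regions. Of 10 tested, 5 were higher and 0 lower in CA1 minus CA3 (median 1.35), and 0 were higher and 8 lower in CbG minus CTX (median -2.24). *Arc*, an immediate early gene of synapses, was 2141.7, 3076.3 and 1734.3 in CA1 against 730.4 and 685.8 in CA3 (1.85, adjusted p = 0.000885), and 237.6 and 149.3 in CbG against 3954.5, 3022.4 and 1946.5 in CTX (-4.01, adjusted p = 5.92e-07). *Vgf*, a secreted granule protein gene induced by neurotrophins, was 96.9 and 93.1 in CbG against 960.7, 1113.3 and 1002.5 in CTX (-3.26, adjusted p = 1.35e-06), and 822.2, 688 and 891.3 in CA1 against 956.5 and 756.8 in CA3. *Fos* was higher in CA1 than in CA3 (2.11, adjusted p = 0.000721). *Dusp6*, a phosphatase that ends ERK signals, was higher in CA1 than in CTX (1.94, adjusted p = 0.00181), while *Dusp1* was lower (-1.62, adjusted p = 0.000291). In CA1 minus CTX 3 of the 10 targets were higher and 2 lower, against 2044 and 544 of all 7463 tested probe sets. Over all 7463 tested probe sets, 409 were higher in CA1 minus CA3 and 907 lower in CbG minus CTX. After the labels were exchanged, 6 targets were higher and 0 lower in CA1 minus CA3, and 0 higher and 8 lower in CbG minus CTX. As labelled, 1 was higher in CA1 minus CA3 and 1 lower in CbG minus CTX, and with no filter 1 and 5 of 12. *Npy*, counted among these targets, was also among the interneuron markers here. The summed signal of 6 interneuron markers was 7625.1 to 9001.2 in CA1 and 3740.2 and 4997 in CA3 replicates 1 and 2. It was 5828.1 and 10040.6 in CbG replicates 1 and 2, and 11817.8 to 16200.2 in CTX. The part of interneurons in the values of the targets was not tested.

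Some genes of the signaling branches were called as well. *Camk2a*, a calcium-dependent kinase, was lower in CbG than in CTX (-4.56, adjusted p = 1.19e-07). *Itpr1* of the same branch, also among the Purkinje markers here, was higher in CbG than in CTX (1.01, adjusted p = 0.022). It was also higher in CA1 than in CA3 (0.99, adjusted p = 0.0459). With the labels exchanged, 0 genes of this branch were called higher in either comparison. *Foxo3*, a factor restrained by Akt, was 6222 and 5801 in CbG against 2207.6, 2531.5 and 2447.2 in CTX (1.46, adjusted p = 0.000335). The adaptor *Gab1* was lower in CA1 than in CTX (-2.21, adjusted p = 0.000147), and the adaptor *Shc2* was lower in CbG than in CTX (-1.36, adjusted p = 0.00467). Among the p75 partners, *Lingo1*, a coreceptor of the Nogo receptor complex, was lower in CbG than in CTX (-1.99, adjusted p = 0.000261). Of 5 tested Ras and MAPK genes, 0 were called in CA1 minus CA3 and 0 in CbG minus CTX, and of 9 tested PI3K and Akt genes 0 and 1. Of 5 tested PLC and calcium genes, 1 was higher and 0 lower in CA1 minus CA3, and 1 higher and 1 lower in CbG minus CTX. Over all 7463 tested probe sets, 10.5% were called in CA1 minus CA3 and 26.3% in CbG minus CTX. With so few genes, these counts do not set a branch apart from those shares.

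**Figure D3:**
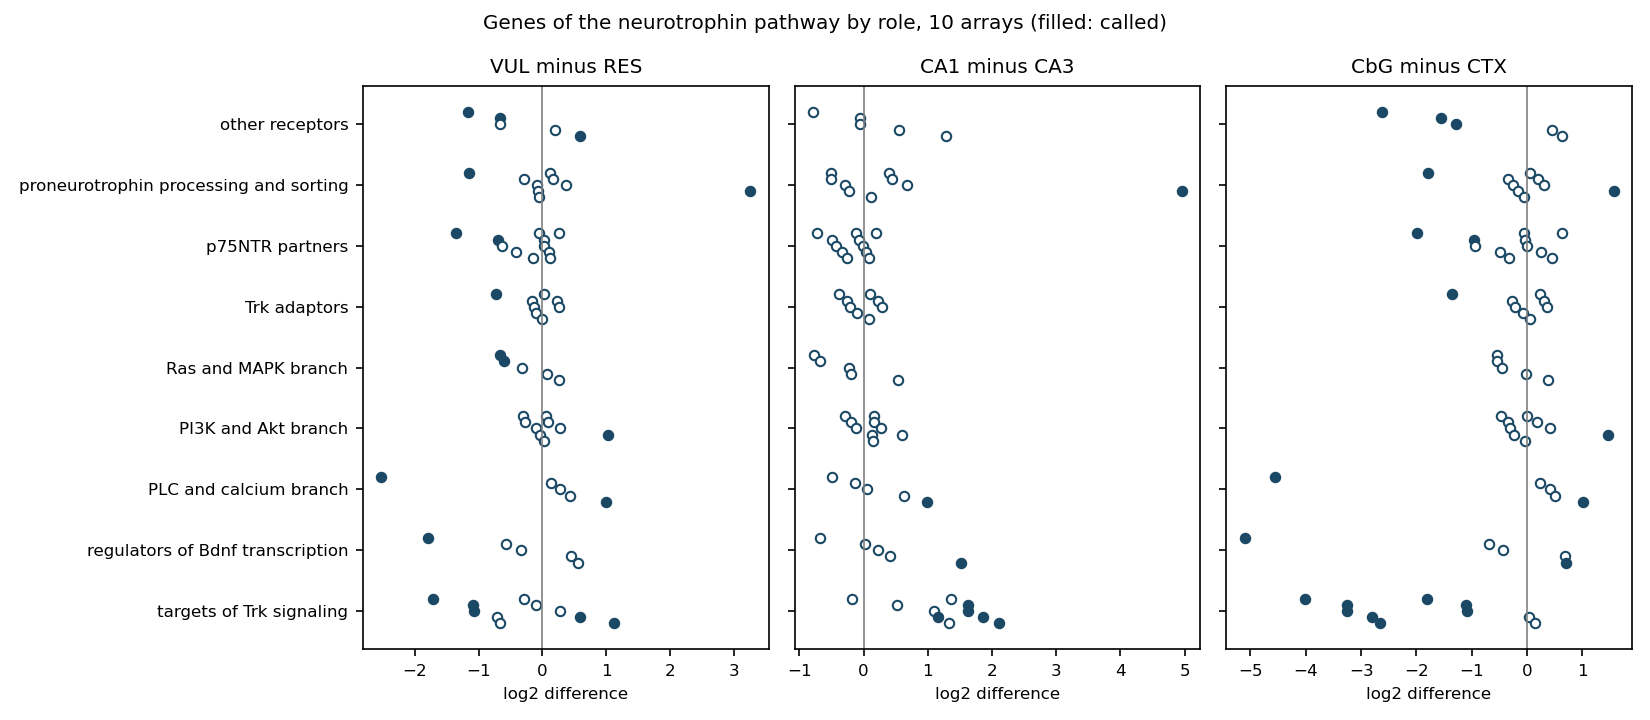
Log2 difference (horizontal axes) of the 67 tested pathway genes by role in 3 comparisons over 10 arrays, 1 circle per gene, filled where called. The targets of Trk signaling lie right of 0 in CA1 minus CA3 for 5 called genes and left of 0 in CbG minus CTX for 8.

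**Figure D4:**
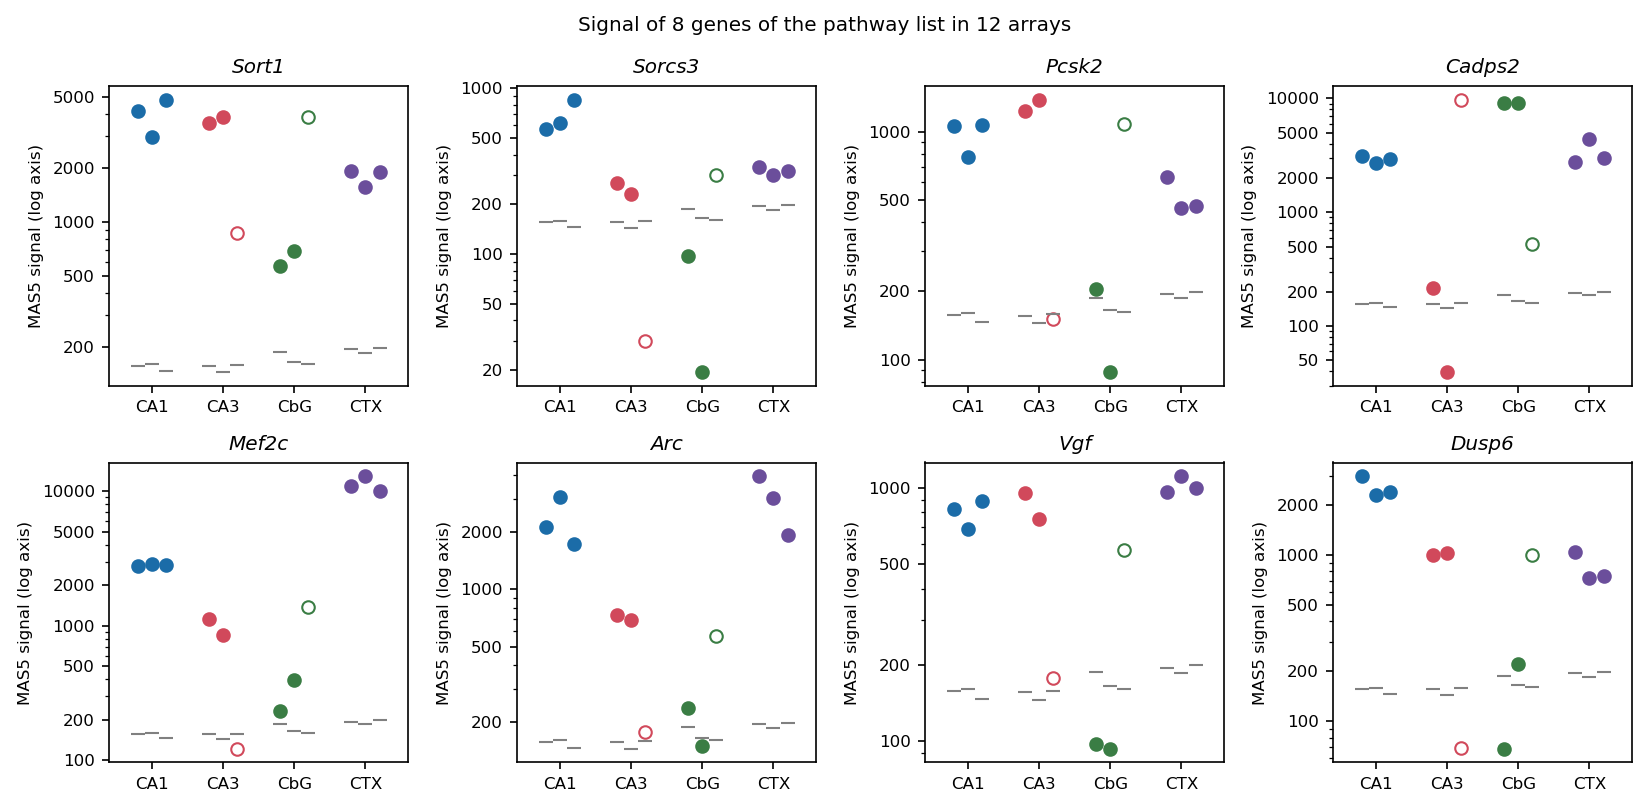
MAS5 signal (log axes) of 8 pathway genes by region, 1 circle per array with replicates 1 to 3 from left to right, open circles for replicate 3 of CA3 and of CbG as labelled, and grey dashes for the array medians. *Sort1*, *Sorcs3*, *Pcsk2*, *Mef2c*, *Arc*, *Vgf* and *Dusp6* are lowest in the filled CbG circles, and *Cadps2* is highest there.

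The probe sets most like *Ntrk2* 1368972_at over the 10 arrays, among 6256 compared, were those of *Nos1ap* (r = 0.952), *Tbcb* (r = 0.95) and *Kcns3* (r = 0.948). *Kcns3*, a modifying potassium channel subunit, was 464.5, 455.9 and 479.2 in CA1, 271.6 and 244.6 in CA3, 39.3 and 71.5 in CbG and 539.8, 959.6 and 436.5 in CTX, lowest in CbG like *Ntrk2* 1368972_at. Those most like *Ntrk3* were *Ap3d1* (r = 0.961), *Ppp1cc* (r = 0.958) and *Cops7a* (r = 0.957). These points share regions and array medians, and the correlations are descriptions.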

How the data were processed

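RNA of laser-captured neurons was measured on 12 arrays, with 3 biological replicates in each of 4 regions. The authors deposited linear MAS5 intensities scaled to a common target, and detection calls were not used here. Probe sets were named by the platform's gene table, which gave 12783 of them 1 symbol. Of 15866 probe sets that are not controls, 7463 passed the signal filter over 10 arrays and 7535 over 12. Log2 signals centred on array medians were fitted in limma 3.58.1 (R 4.3.3) to a mean per region plus a replicate block, with Benjamini-Hochberg adjustment over all tested probe sets. The block was used because the study's methods used paired tests; that equal numbers name 1 rat is an assumption. Deviations from region means correlated at 0.12 on average between arrays of 1 number (-0.0356 to 0.22, 13 pairs), against -0.0651 between others, so not every pair deviated together. The methods' paired test and other settings were alternatives. Only the calls of VUL minus RES past the signal filter were tried on simulated data, with independent noise. The other comparisons and the fit without a filter were not tried. The members, lists and the handling of the 2 arrays were chosen with earlier results of these data known. Named were all family probe sets, up to 3 called pathway genes per role and comparison, and the 3 probe sets most like each tested member. Figures used matplotlib 3.10.9 (Python 3.11.15). Array number limits the precision.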

Additional observations from a re-analysis of the deposited data

Results flagged for a closer look

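For 2 probe sets the difference between CA1 and CA3 was not that between CbG and CTX, by a test of the difference itself over 10 arrays. This contrast was chosen after the values were seen, and the 2 calls come from different fits. For *Ntrk2* 1368972_at it was 1.912 on the log2 scale (adjusted p = 0.0064, fit past the signal filter), from 0.44 in CA1 minus CA3 and -1.47 in CbG minus CTX. In the fit without a filter this contrast of *Ntrk2* was not called (adjusted p = 0.116). For *Ntf3* 1387267_at it was -3.804 (adjusted p = 0.0287, fit without a filter), from -2.29 and 1.52, and it was -4.61 to -3.00 in 13 fits without an array or a replicate number, none of them called. As labelled, neither passed (adjusted p = 0.119 for *Ntrk2* and 0.107 for *Ntf3*). Regions with 3 arrays were not searched for outlying arrays.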

How the results depend on the processing

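Of the 2 family probe sets past the filter, 0 were called in VUL minus RES, 0 in CA1 minus CA3 and 1 in CbG minus CTX. The CA1 minus CA3 count was 0 in all 24 alternatives. In VUL minus RES, quantile normalization gave 1, and leaving out an array or a replicate number gave 0 to 1, with 1 without CA3 replicate 2, CTX replicate 1 or replicate number 2. In CbG minus CTX the count was 0 with the 12 arrays as labelled, 0 with the methods' paired test, 0 with that test after Benjamini-Hochberg adjustment, 0 with no filter and 2 with the labels exchanged, and it was 1 without any single array or replicate number. Over the 6 pairs of regions, 5 differences of the 2 probe sets were called. This count was 0 as labelled, 3 with no centring, 1 with the methods' paired test, 0 with it after adjustment, 1 with no filter, and 2 to 5 without an array or a replicate number, with 3 without CA3 replicate 1 or CTX replicate 1 and 2 without replicate number 1. With no replicate block the counts were 0, 0, 1 and 5, and apart from *Bdnf* 1368677_at and *Ntf3* no call of a family probe set changed. No difference of a family probe set with an unadjusted p under 0.05 turned its sign. For *Bdnf* 1368677_at and *Ntf3*, adding 50 before log2 or a trended and robust prior gave calls in CA1 minus CA3 (*Bdnf* adjusted p = 0.00363 and 0.00241, *Ntf3* 0.00338 and 0.003). CA3 minus CTX of *Ntf3* was 2.77 to 3.35 without an array or a replicate number and lost its call in 10 of these 13 fits. Of the pathway genes, 6 to 13 were higher in CA1 minus CA3 without an array or a replicate number (13 without replicate number 2), 8 to 15 were lower in VUL minus RES (8 without CA3 replicate 2), and 2 to 7 were higher in CbG minus CTX (7 without CbG replicate 1, and 2 without CA1 replicate 3, CbG replicate 2, any 1 CTX replicate or replicate number 3), where 15 to 19 were lower. Centring removes differences between array medians. As region means of the log2 array medians, these were -0.32 in CA1 minus CTX, -0.36 in CA3 minus CTX and -0.13 in CbG minus CTX. They were -0.19 in CA1 minus CbG, -0.23 in CA3 minus CbG and 0.17 in the contrast between the pairs. The cause of the changes in calls and counts was not tested.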
